A study of Mus musculus with 6 samples.

Results

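Tek, Tie1, Ptprb, Angpt1, Angpt2, Angptl2 and Angptl4 encode the Tie receptors of endothelial cells, the phosphatase that acts on them, and ligands and ligand-like proteins of the angiopoietin family. These 7 genes were listed by name for their roles and matched by symbol among the 24421 gene symbols of the count table. The study compared blood endothelial cells (BECs) and lymphatic endothelial cells (LECs) in which Dot1l, the histone H3K79 methyltransferase, was deleted or raised. Skin BECs came from E15.5 embryos that were Tie2-Cre(-); Dot1l 2f/2f (Cont, which the label calls wild type) or Tie2-Cre(+); Dot1l 2f/2f (cKO), so the controls carried the floxed alleles too, and RNA of 2 to 3 embryos was pooled per library. The cultured cells were 1 line of embryonic yolk sac BECs and 1 of embryonic dermal LECs. They received empty lentivirus (Cont, labelled wild type) or a lentivirus that brings dCas9-VP64 and guides to the Dot1l promoter (OE, labelled Dot1l OE), and GFP-positive cells of 2 to 3 flasks made each library. Each condition was sequenced as 1 library. No difference could therefore be tested against a spread between replicates, and every interval below covers counting error only.

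TEK (also called Tie2) and TIE1 are receptor tyrosine kinases found mainly on endothelium. Angiopoietin-1, released mostly by mural and mesenchymal cells, activates TEK and stabilizes vessels, whereas angiopoietin-2, stored and released by endothelial cells themselves, is a weak or context-dependent agonist that can oppose it. TIE1 binds no angiopoietin directly with high affinity and modulates TEK signaling, and PTPRB (VE-PTP) dephosphorylates TEK. The angiopoietin-like proteins share domains with the angiopoietins but do not bind the Tie receptors: ANGPTL4 inhibits lipoprotein lipase, and ANGPTL2 is a secreted inflammatory mediator.

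Tek is also the gene whose promoter drove the Cre. The Tie2-Cre driver is active in endothelial cells and in part of the blood lineage, so the deletion was not limited to BECs, and which Tek fragment the transgene holds is not given in the sources used here. The 250 bases before the RefSeq start of Tek (GRCm38.p6, the assembly of mm10, plus strand, chr4:94739039-94739288) are shown because this is the region next to the start of the gene that named the driver. Capitals mark the core letters GGAA of ETS factor motifs, which read TTCC on this strand.

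Tek upstream: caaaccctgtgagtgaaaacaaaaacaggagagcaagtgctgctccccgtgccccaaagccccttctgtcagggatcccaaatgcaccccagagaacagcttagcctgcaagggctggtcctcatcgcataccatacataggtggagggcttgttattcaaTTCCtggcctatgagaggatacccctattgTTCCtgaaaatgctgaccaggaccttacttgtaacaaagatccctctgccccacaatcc

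On both strands the stretch held 2 GGAA cores, from -89 to -86 and from -59 to -56 relative to the start. Of the 32851 RefSeq promoter windows of this length, 93.4% held at least 1 such core and 76.8% held at least 2, so the count in Tek is a common one. GATAA (22.6% of windows) and the forkhead letters TGTTTAC (3.17%) were not found in this window. Of the members, 3 had a promoter entry: Tie1 had 7 GGAA cores and Angptl2 had 2, where the median over all windows was 3. The share of windows with 7 or more was not computed.

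In mm10, with positions from GENCODE M21, all 7 genes are protein-coding. Tek lies on chromosome 4 from 94739289 to 94874976 and Tie1 on the same chromosome from 118471191 to 118490061. Ptprb lies on chromosome 10 from 116275523 to 116389535. Angpt1 lies on chromosome 15 from 42424723 to 42676977 and Angpt2 on chromosome 8 from 18690263 to 18741562. Angptl2 lies on chromosome 2 from 33216069 to 33247717 and Angptl4 on chromosome 17 from 33773750 to 33781830.

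The libraries held from 8863349 reads (skin Cont) to 31032461 reads (OE-LECs). Dot1l had 762 reads in Cont and 944 in cKO skin BECs (log2 ratio -0.07, interval -0.21 to 0.07), so the count over the whole gene did not separate these libraries, and the cKO library is named by its label. The paper reports a check of the deletion by RT-qPCR of Dot1l, without replicates. Dot1l was 2.78-fold higher in OE-BECs and 2.30-fold higher in OE-LECs. The endothelial markers Pecam1 and Cdh5 were at 750 CPM (a gene's reads scaled to equal library totals) or more in all 6 libraries. The lymphatic master regulator Prox1 had 0 reads in all 4 cultured libraries, including both labelled LEC, although Lyve1 was at 604 to 1998 CPM in them. Both skin libraries, sorted as Lyve1-negative, CD45-negative and F4/80-negative, still held Prox1 (147 CPM in Cont and 79.7 in cKO), Lyve1 (1027 and 1801 CPM) and Ptprc, the CD45 gene (136 and 211 CPM). In bulk RNA, fewer cells of a type and less RNA per cell cannot be told apart.

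Tek had its highest level in fresh skin BECs. It stood at 404 CPM in Cont and 224 CPM in cKO skin BECs, at 99.97 CPM in Cont and 33.2 CPM in OE cultured BECs, and at 34.2 CPM in Cont and 21.7 CPM in OE LECs. The exact Poisson 95% intervals of neighbouring libraries in this order were apart, except for Cont LECs (32.0 to 36.5 CPM) and OE-BECs (30.3 to 36.4 CPM). Cont cultured BECs thus had 4.04-fold less Tek than Cont skin BECs, and Cont LECs had 2.92-fold less than Cont cultured BECs, on the CPM scale.

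Tie1 followed another order, with its highest levels in culture. It stood at 294 CPM in Cont and 217 CPM in cKO skin BECs, at 620 CPM in Cont and 263 CPM in OE cultured BECs, and at 517 CPM in Cont and 423 CPM in OE LECs. On the CPM scale all neighbours in the order of its levels had intervals that were apart. The places of skin Cont and OE-BECs depended on the scale, however. With the TMM library sizes of all 6 libraries they stood at 262.5 and 288.9 CPM, and with Rn45s left out of the totals at 295.8 and 294.6 CPM. Relative to skin Cont, Tie1 was 2.11-fold higher in cultured Cont BECs, whereas Tek was lower there.

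Ptprb stood at 754 CPM in Cont and 551 CPM in cKO skin BECs, at 509 CPM in Cont and 212 CPM in OE cultured BECs, and at 162 CPM in Cont and 126 CPM in OE LECs. On the CPM scale the order of its levels was that of Tek except for the place of OE-BECs, which lay above both LEC libraries. For Tek the place of OE-BECs was not resolved, since their interval overlapped that of Cont LECs. It also depended on the scale. With the TMM library sizes of all 6 libraries Tek stood at 36.6 CPM in OE-BECs and 34.7 CPM in Cont LECs. With Rn45s left out of the totals it stood at 37.3 and 34.2 CPM. For Ptprb, the TMM library sizes put cultured Cont BECs (548 CPM) above skin cKO (478 CPM). Per kilobase of exon, the 3 receptor-side genes were near each other in skin Cont, at 85.7 RPKM (CPM per kilobase) for Tek, 59.8 for Tie1 and 56.6 for Ptprb. In Cont LECs they were far apart, at 7.26, 105 and 12.2 RPKM.

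**Figure D1:**
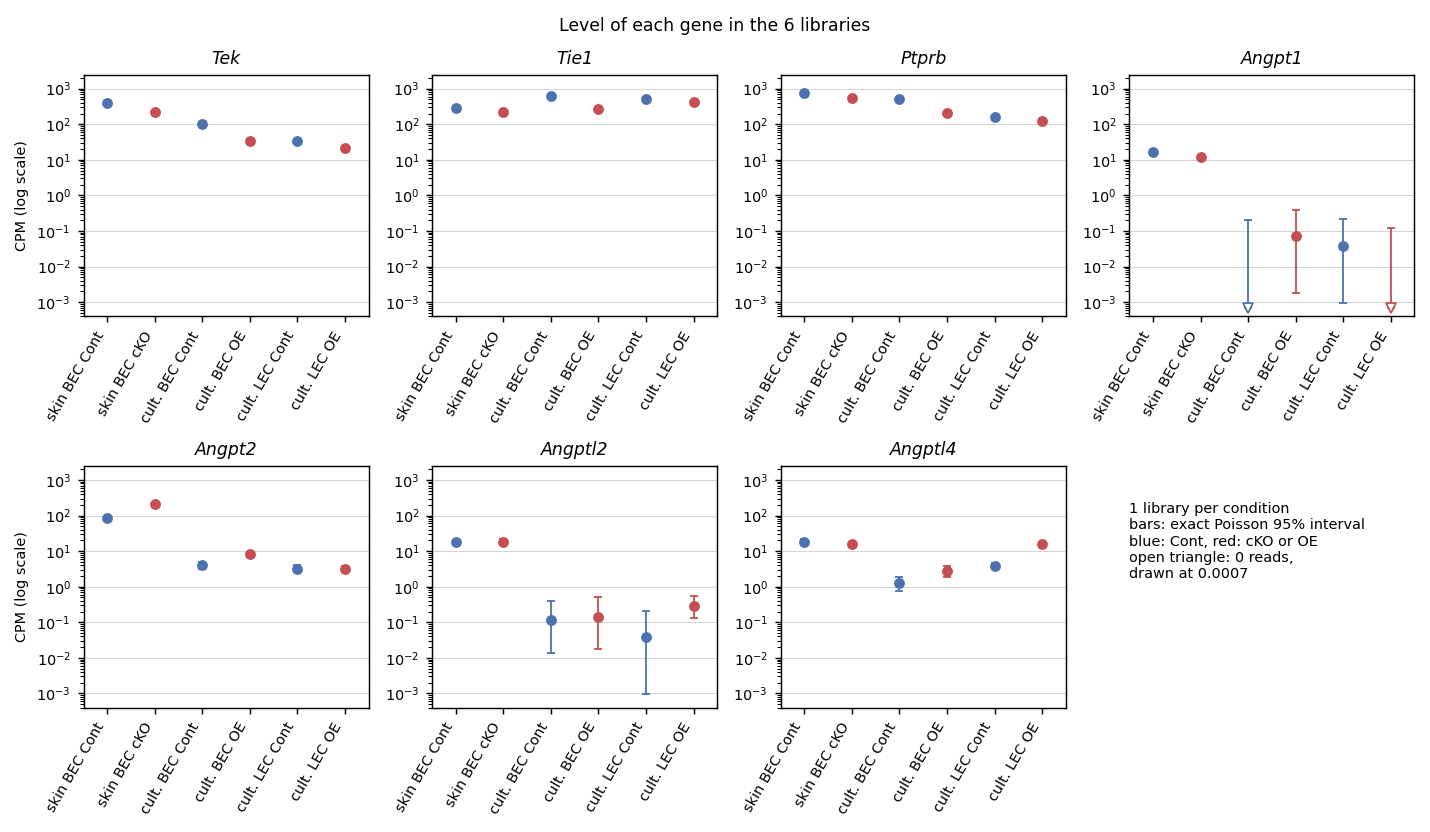
Level of each of the 7 genes in the 6 libraries, in CPM on a log axis, with exact Poisson 95% intervals and 1 library per condition. Tek was highest in skin BECs (404 CPM) and Tie1 in cultured BECs (620 CPM), while Angpt1 and Angptl2 were close to or at 0 in the 4 cultured libraries.

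The ligands and the angiopoietin-like genes were higher in both skin libraries than in any cultured one, except that Angptl4 in OE-LECs reached the skin levels. Angpt1 had 143 reads in Cont and 131 in cKO skin BECs, which is 16.1 and 11.8 CPM with overlapping intervals. Both OE-BECs and Cont LECs had 1 read, and Cont BECs and OE-LECs had 0, where a floor of 3 reads stands for 0.170 CPM in Cont BECs and 0.0967 CPM in OE-LECs and the exact Poisson intervals reach 0.209 and 0.119 CPM. Against skin Cont, Angpt1 was 95.1-fold lower in cultured Cont BECs if its 0 reads are set at that floor. The 2-sided interval of the log2 ratio, which ended at -6.25, allows a smaller fold. The fibroblast and mural genes, which mark cells that make angiopoietin-1, were also lower in culture: the 12 listed genes summed to 2072 CPM in Cont and 1561 CPM in cKO skin BECs, and to between 7.52 and 26.1 CPM in culture, where Rgs5 and Kcnj8 were at 0 in all 4 libraries. This was not particular to them. The macrophage genes summed to 3882 and 6186 CPM in skin and to between 36.0 and 96.6 CPM in culture. Sums of the keratinocyte and adipocyte genes were lower in each cultured library than in both skin libraries too. The part of any of these cell types in the level of Angpt1 was not tested.

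Angpt2 stood at 85.1 CPM in Cont and 215 CPM in cKO skin BECs. It was low in culture, where BECs had 3.96 CPM with the empty virus and 8.11 CPM with raised Dot1l, and LECs had 3.22 and 3.19 CPM. Both LEC libraries and Cont BECs did not differ beyond their intervals, and all other neighbours did. Cont cultured BECs had 21.5-fold less Angpt2 than Cont skin BECs (CPM).

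Angptl2 had 160 and 206 reads in Cont and cKO skin BECs (18.1 and 18.6 CPM). In culture both BEC libraries had 2 reads, and the LEC libraries had 1 (Cont) and 9 (OE), a range of 0.0383 to 0.290 CPM in which neighbouring intervals overlapped. Angptl4 stood at 18.4 CPM in Cont and 15.9 CPM in cKO skin BECs, at 1.24 CPM in Cont and 2.73 CPM in OE cultured BECs, and at 3.83 CPM in Cont and 15.6 CPM in OE LECs. OE-LECs thus reached a level whose interval (14.2 to 17.1 CPM) overlapped that of cKO skin BECs. With the TMM library sizes of all 6 libraries, the highest Angptl4 levels were 16.7 CPM in OE-LECs and 16.4 CPM in skin Cont. These 2 were not separated by counting error, since on the CPM scale the interval of skin Cont (15.7 to 21.4 CPM) overlapped that of OE-LECs.

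Ratios of reads within a library need no scaling between libraries. There were 0.728 reads of Tie1 per read of Tek in skin Cont (interval 0.692 to 0.766) and 0.968 in skin cKO (0.915 to 1.02). The ratio was 6.20 in Cont and 7.90 in OE cultured BECs, and 15.1 in Cont and 19.5 in OE LECs. In each of the 3 pairs the changed library had more Tie1 per Tek than its control, and the intervals of a pair were apart. The same held for Ptprb per Tek, at 1.87 and 2.46 in skin, 5.09 and 6.39 in cultured BECs, and 4.75 and 5.82 in LECs. Relative to both other receptor-side genes, Tek was lower in the library labelled cKO and in both with raised Dot1l.

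For the ligands, Angpt2 had 5.27 reads per read of Angpt1 in skin Cont (4.40 to 6.35) and 18.2 in skin cKO (15.2 to 21.8). In culture Angpt1 had at most 1 read, so no such ratio could be measured well. Reads of Angpt2 per read of Tek, a ratio added after the values were seen, were 0.211 in skin Cont and 0.958 in skin cKO, 0.0396 in Cont and 0.244 in OE cultured BECs, and 0.0941 in Cont and 0.147 in OE LECs. The intervals of the LEC pair just overlapped (0.0743 to 0.118 and 0.118 to 0.182), and those of the other pairs were apart. Reads of Angptl2 per read of Angptl4 were 0.982 and 1.17 in skin and at most 0.0909 in culture.

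**Figure D2:**
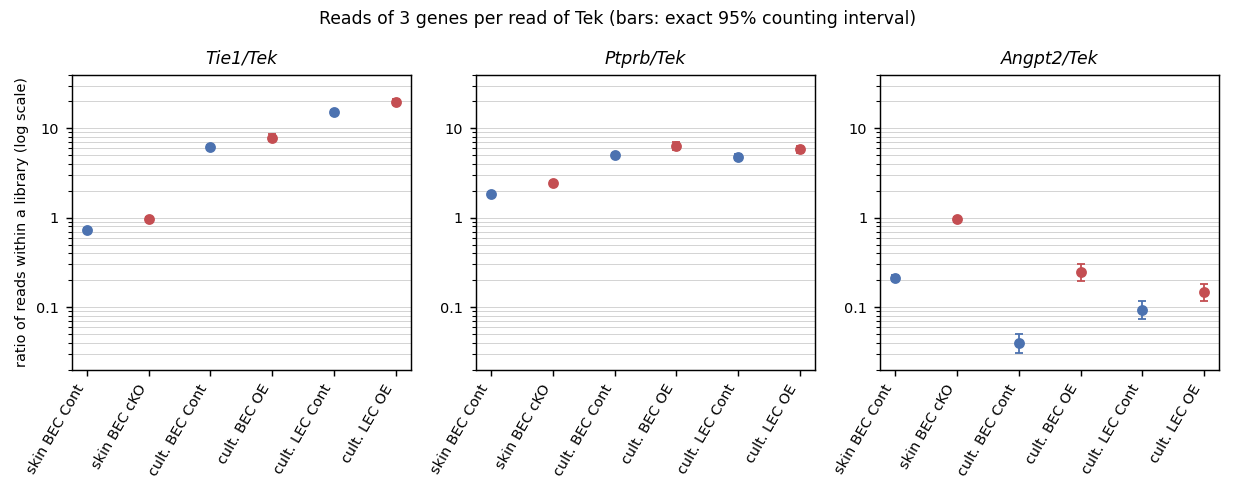
Reads of Tie1, Ptprb and Angpt2 per read of Tek within each library, on a log axis, with exact 95% counting intervals. Each changed library (red) lies above its control (blue) in all 3 panels, for instance 0.968 against 0.728 for Tie1 in skin BECs. For Angpt2, a ratio added after the values were seen, the intervals of the LEC pair overlap.

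The first comparison asked how deletion of Dot1l moved these genes in skin BECs. Angpt2 was 2.43-fold higher in cKO BECs, Tek was 1.87-fold lower, and Tie1 and Ptprb were 1.41- and 1.42-fold lower, though the last 2 turned slightly higher when endothelial markers set the scale. The rule of the study asks for 5 or more normalized counts in the higher library and a ratio above 3. It called 0 of 7 genes, where 5.17% of all genes that reached the minimum were called up and 2.41% down. With more than 2-fold and at least 20 normalized counts, Angpt2 was called up (6.67% of all genes) and no member down (3.25%).

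Angpt2 stood at 860 (Cont) and 2088 (cKO) normalized counts. Its log2 ratio was 1.28 (interval 1.16 to 1.4), and 97.8% of the 11523 genes with at least 100 reads had a lower ratio. Tek had 4082 and 2179 normalized counts (log2 ratio -0.91, interval -0.98 to -0.83), and 2.72% of those genes were lower still. The log2 ratio was -0.49 for Tie1 (interval -0.58 to -0.41), -0.51 for Ptprb (-0.56 to -0.46) and -0.50 for Angpt1 (-0.86 to -0.15). For Angptl2 it was -0.01 (-0.32 to 0.29) and for Angptl4 -0.27 (-0.58 to 0.05), so neither differed beyond counting error. Intervals lay above 0 for 1 member (23.1% of all genes) and below 0 for 4 (25.4%). The median of the 7 genes was -0.49, against 0.0026 over the 15554 genes with at least 10 reads.

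The endothelial markers were lower in the same library. Of 12 marker genes 10 were lower, with a median log2 ratio of -0.66 and a range from -0.998 (Kdr, the main VEGF receptor) to 0.21 (Egfl7). Tek lay within that range, and 2 of the 12 were lower than Tek. On the scale of this marker median, an alternative chosen after seeing the data, the log2 ratio of Tek was -0.25, those of Tie1, Ptprb and Angpt1 turned to 0.16, 0.15 and 0.15, and that of Angpt2 was 1.94, past 3-fold. Macrophage genes were higher, 11 of 12, and summed to 3882 CPM in Cont and 6186 CPM in cKO. Of 8 keratinocyte genes 6 were higher (228 and 393 CPM in sum). Of 12 fibroblast and mural genes 10 were lower (median -0.41), and 4 of the 5 adipocyte genes with at least 10 reads were lower, 3 of them called. Of the 6 lymphatic genes with at least 10 reads 4 were lower and 2 higher (median -0.22), with Prox1 at -0.94 and Pdpn at 1.07. The part of these cell types in the ratios was not tested.

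**Figure D3:**
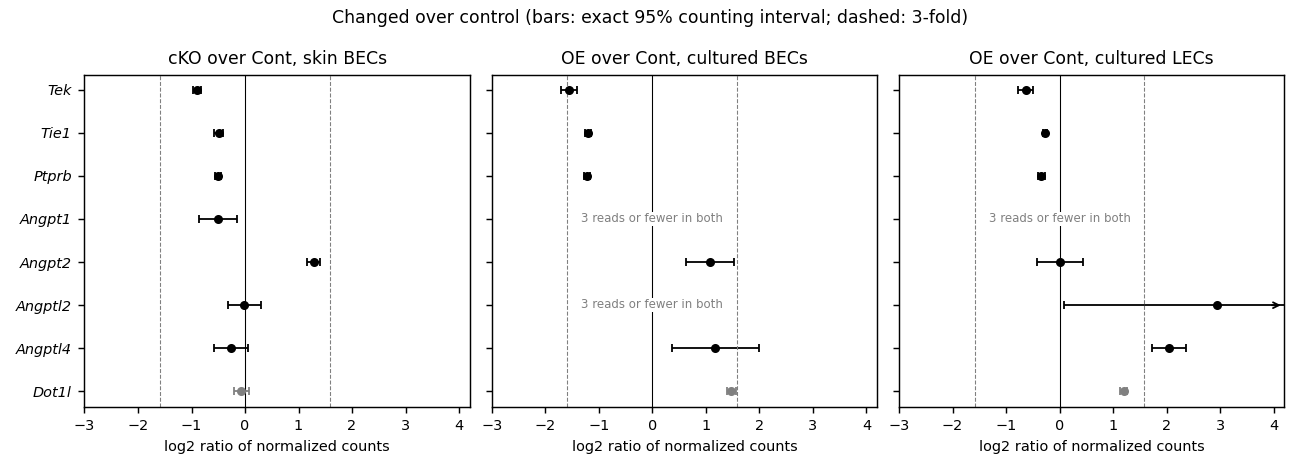
Log2 ratio of normalized counts, changed over control, for the 7 genes and Dot1l (grey) in the 3 comparisons, with exact 95% counting intervals and dashed lines at 3-fold. Tek, Tie1 and Ptprb lie left of 0 in each panel (in cKO BECs Tie1 and Ptprb pass to 0.16 and 0.15 if endothelial markers set the scale), and Angpt2 lies right of 0 in cKO BECs (1.28) and OE-BECs (1.07) and at 0.01 in OE-LECs.

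The second comparison asked what raised Dot1l did in cultured BECs. All 3 receptor-side genes were lower in OE-BECs: Tek by 2.93-fold, Ptprb by 2.33-fold and Tie1 by 2.30-fold. Angpt2 and Angptl4 were 2.10- and 2.25-fold higher, from low counts. The study's rule for OE samples (at least 3 normalized counts) called 0 of the 5 members that reached the minimum, against 8.02% of all genes up and 5.27% down. Tek stood just under its 3-fold limit, and with total counts as the scale it was called. At more than 2-fold and at least 20 normalized counts, Tek, Tie1 and Ptprb were called down (5.59% of all genes) and Angpt2 and Angptl4 up (4.33%).

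Tek had 1768 reads in Cont and 463 in OE-BECs (1548 and 529 after normalization). Its log2 ratio was -1.55 (interval -1.70 to -1.40). Of the 10622 genes with at least 100 reads, 1.60% had a lower ratio than Tek, 2.86% lower than Ptprb (-1.22, interval -1.28 to -1.16) and 2.95% lower than Tie1 (-1.20, interval -1.26 to -1.15). Angpt2 had 70 and 113 reads (log2 ratio 1.07, interval 0.63 to 1.53). Angptl4 had 22 and 38 reads (1.17, interval 0.38 to 2.0). Angpt1 and Angptl2 were at 3 reads or fewer in both libraries, and no ratio is given. Intervals lay above 0 for 2 members (27.4% of all genes) and below 0 for 3 (30%). The median over the 5 members with at least 10 reads was -1.20, against -0.0132 over all genes.

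Endothelial markers moved unevenly here. Of the 12, 9 were lower, with a median of -0.28, and 2 were past 3-fold: Flt1, a VEGF receptor that acts largely as a decoy (-2.14), and Cldn5, the main tight junction claudin of endothelium (-1.73). Cd34 was higher (0.78). On the scale of the marker median the log2 ratios of Tek, Tie1 and Ptprb were -1.27, -0.93 and -0.95. The 12 macrophage genes summed to 67.9 CPM in Cont and 36.0 CPM in OE-BECs, most of it Cd68, a lysosomal gene (1093 and 448 reads). Of the 5 with at least 10 reads 3 were lower and Lyz2 was called down (40 and 7 reads), while Adgre1, the 3 C1q genes and the leukocyte gene Ptprc were at 0 reads in both libraries.

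**Figure D4:**
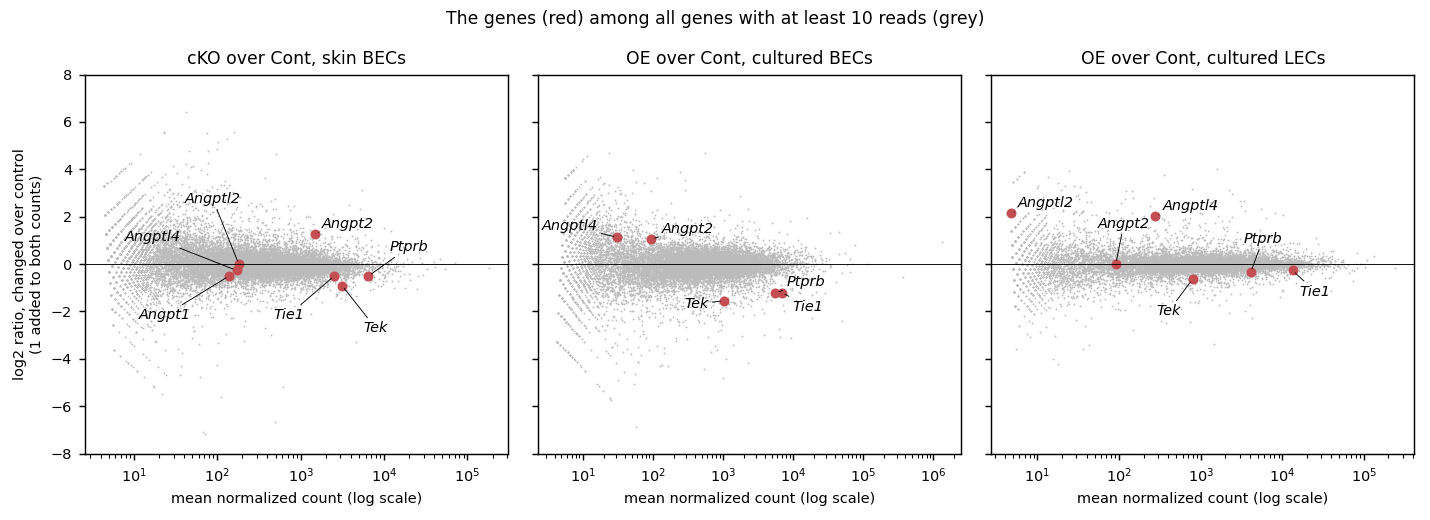
Log2 ratio, changed over control, against the mean normalized count (log axis) for all genes with at least 10 reads (grey) and the members among them (red), with 1 added to both counts. In OE-BECs Tek, Tie1 and Ptprb lie below most genes (-1.55, -1.20 and -1.22), and in OE-LECs Angptl4 lies above most (2.04).

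The third comparison asked the same of LECs. Angptl4 was 4.12-fold higher in OE-LECs, and the receptor-side genes were lower by smaller folds than in OE-BECs, 1.55-fold for Tek, 1.27-fold for Ptprb and 1.21-fold for Tie1. The study's rule called 2 of the 6 members that reached the minimum, Angptl4 and Angptl2, both up, where 2.77% of all genes were called up and 2.09% down. The call of Angptl2 rests on 1 read against 9 (ratio 7.67, interval 1.06 to 336), and with a minimum of 20 normalized counts only Angptl4 was called, also at more than 2-fold (2.26% of all genes up and 1.56% down).

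Angptl4 had 100 reads in Cont and 484 in OE-LECs, which normalized to 108 and 447. The log2 ratio was 2.04 (interval 1.73 to 2.37), and 99.7% of the 10963 genes with at least 100 reads had a lower ratio. Tek had 893 and 674 reads, with a log2 ratio of -0.64 (interval -0.78 to -0.49), and 2.75% of genes were lower. The ratio was -0.34 for Ptprb (-0.41 to -0.28) and -0.27 for Tie1 (-0.30 to -0.23). Angpt2 had 84 and 99 reads, 91.0 and 91.4 normalized counts (log2 ratio 0.01, interval -0.43 to 0.44). Angpt1 was at 1 and 0 reads. Intervals lay above 0 for 2 members (24.2% of all genes) and below 0 for 3 (21.4%). The median over the 6 members with at least 10 reads was -0.13, against 0.0045 over all genes. The median log2 ratio of the 12 endothelial markers was -0.12, and Cldn5 (-1.38) and Flt1 (-1.12) were the lowest. Whether a gene responded differently in the 2 cell lines was not tested, since each condition had 1 library.

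Genes that work with the members were read from fixed lists, described by counts and medians without a test, for genes with at least 10 reads in a pair. Of the Tie adaptors and genes of the PI3K-AKT arm, through which TEK signals, the rule called 0 of 16 in cKO BECs, 0 of 13 in OE-BECs and 0 of 14 in OE-LECs. Below that minimum Dok2 passed the rule in OE-BECs with 0 and 5 reads. In cKO BECs 13 of the 16 were lower, with a median log2 ratio of -0.17. The lowest was Nos3, the endothelial nitric oxide synthase, from 749 to 504 reads (-0.95, interval -1.12 to -0.78), and Dok2, an adaptor that docks on TEK, was at 106 and 211 reads (0.62, interval 0.27 to 0.97). In OE-BECs Nck1, another adaptor, was the lowest (-0.72, interval -0.88 to -0.56), and Foxo1, the transcription factor that AKT restrains and that induces Angpt2, was at -0.17 (interval -0.29 to -0.05). In OE-LECs the median of this list was -0.03.

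Of the surface and matrix partners, 0 of 8, 0 of 7 and 0 of 7 were called. Their medians were -0.32 in cKO BECs, -0.30 in OE-BECs and 0.06 in OE-LECs. Kdr and Cdh5, the latter encoding VE-cadherin, to which PTPRB binds, were at -0.998 and -0.70 in cKO BECs, and Cdh5 was at -0.76 in OE-BECs. Svep1, a matrix protein that binds TIE1, had 124 and 166 reads in skin and at most 2 reads in any cultured library.

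Of the lipase side of ANGPTL4, Gpihbp1, which carries lipoprotein lipase to the vessel lumen, was called down in both overexpression comparisons. In cultured BECs 783 reads (Cont) stood against 136 (OE), 4.42-fold lower with a log2 ratio of -2.14 (-2.42 to -1.88). In LECs 585 stood against 123, 5.58-fold lower with a log2 ratio of -2.48 (-2.77 to -2.20). In skin it had 428 and 575 reads (0.05, interval -0.13 to 0.23). Lpl itself had 479 and 649 reads in skin and at most 9 in any cultured library.

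Target genes of transcription factors that act on Angpt2 and Angptl4 were listed as well. Of the FOXO targets 0 of 15, 0 of 14 and 0 of 14 were called, and the medians were -0.16, -0.27 and -0.03 in cKO BECs, OE-BECs and OE-LECs. In OE-BECs 11 of the 14 were lower and 3 higher. At more than 2-fold and at least 20 normalized counts 3 were called down, where 5.59% of all genes were, and 0 up. These were Bcl2l11, a pro-apoptotic gene (-1.58, interval -1.77 to -1.39), Sesn3 (-1.37) and Bcl6 (-1.14). The medians of the PPAR targets (13, 10 and 9 genes), among which Angptl4 is usually counted, were -0.22, -0.37 and 0.30. In cKO BECs 11 of the 13 were lower, among them Cd36, a fatty acid transporter (-0.92), and Fabp4, a fatty acid binding protein (-0.74), whereas Plin2, which coats lipid droplets, was at 0.96. In OE-BECs, where Angptl4 was higher, 9 of the 10 were lower and 1 higher. In OE-LECs 7 of 9 were higher and 2 lower, with Plin2 at 0.94, and Cpt1a, for mitochondrial fatty acid import, at 0.47. Calls on this list were of 15 reads or fewer in the higher library (Cidec in cKO BECs, Cd36 in OE-BECs, and, under the minimum, Cd36 in OE-LECs with 1 and 5 reads). The part of FOXO and PPAR target genes in the levels of Angpt2 and Angptl4 was not tested.

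Hypoxia genes were mostly higher in cKO BECs, as was Angpt2, which hypoxia is known to induce. Of 16 genes 14 were higher, with a median of 0.61 against 0.0026 over all genes, and 2 were called up, where 5.17% of all genes were. The macrophage and keratinocyte lists had medians near this one in the same comparison (both 0.59). Adm, the vasodilator adrenomedullin, had 63 and 499 reads (2.61, interval 2.23 to 3.01), and Bnip3, a mitophagy gene, had 178 and 791 reads (1.77, interval 1.54 to 2.02). In OE-BECs the median was -0.07, with Adm at 1.32 and Ndrg1 called down at -1.82 (interval -2.02 to -1.63). In OE-LECs it was 0.08, with Adm at -0.42 and none called. The part of hypoxia genes in the level of Angpt2 was not tested.

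**Figure D5:**
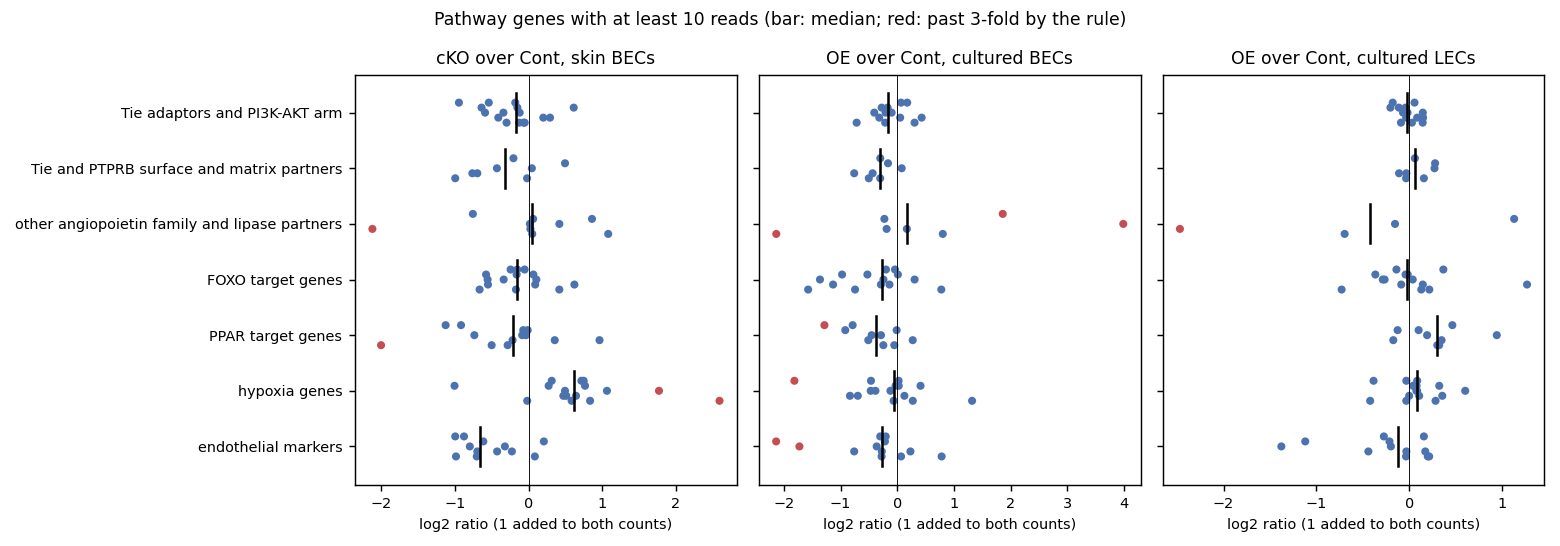
Log2 ratio, changed over control with 1 added to both counts, of the genes on 6 pathway lists and of the 12 endothelial markers, for genes with at least 10 reads. Bars are list medians and red points were called by the study's rule: the hypoxia genes center at 0.61 in cKO BECs, and Gpihbp1 is the leftmost point of its list in both OE panels.

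The genes whose profile over the 6 libraries was nearest to each member were found by the root mean square distance of centered log2(CPM + 1) values among 9706 or 9707 genes with a mean of at least 10 CPM. The 6 points share the contrast of skin with culture, so the list is descriptive only. Nearest to Tek were Mef2c (distance 0.256, r = 0.99, 6 libraries) and Rnf125 (0.261), with 47 genes within 0.5. Mef2c, a transcription factor of muscle and endothelium, was at 417 CPM in skin Cont and 29.8 CPM in OE-LECs. Nearest to Tie1 were Pex3 (0.0661) and Serpinb9 (0.117), and 2101 genes lay within 0.5, so its profile was a common one. Nearest to Ptprb were Ptprm, another receptor phosphatase (0.112), and Tacc1 (0.125). Nearest to Angpt2 were Renbp (0.186) and Wdfy4 (0.240), and nearest to Angpt1 were Mir17hg (0.169) and Dnmt3b (0.205). Il1r1 (0.231) and Nrp1 (0.250) were nearest to Angptl2. Angptl4 had few like it: Ier3 (0.361) and Id3 (0.372) were nearest, and 8 genes lay within 0.5.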

How the data were processed

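RNA-seq counts of 6 libraries were used, 1 per condition. Per the study's methods, the authors used ScriptSeq v2 kits, removed adapters by skewer, aligned to mm10 with STAR (also named in the submitters' processing notes), counted reads per gene with VERSE (option -S) and deposited raw counts. The gene annotation is not given in the sources used here.

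From these counts, CPM, exact Poisson intervals and RPKM (exon length from GENCODE M21) were computed here. Changed over control ratios were scaled by median-of-ratios size factors (DESeq2 1.42.0, R 4.3.3) from the 2 libraries of a pair, with exact Clopper-Pearson 95% intervals on the reads. No test of a condition was possible with 1 library per group. A count of 3 reads was the floor. Genes were called by the study's rule (above 3-fold, minimum 5 for cKO and 3 for OE). Alternatives were scaling by all 6 libraries, TMM (edgeR 4.0.16), total counts or endothelial markers (the last added after seeing the data), totals without Rn45s, a minimum of 20, more than 2-fold, and a pseudocount of 1. Named genes were the 7 members, up to 3 genes per list with the largest ratio among those with at least 100 reads in the pair, the 2 nearest profiles per member, and Dot1l. Markers, Lpl, Svep1, Lipg and other list genes outside that rule were named after their values were seen. Members and lists were chosen with earlier results of these data known. An item on the lists is not reported here. The ratio and call steps were tested on simulated data. Scripts ran under Python 3.11.15 (scipy 1.17.1, pandas 2.3.3).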

Additional observations from a re-analysis of the deposited data

How the results depend on the processing

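The number of members called depended on the threshold more than on the scaling in OE-BECs and OE-LECs, and to the same extent on both in cKO BECs. In cKO BECs 0 were called, and 1 with more than 2-fold or with the median of the 12 endothelial markers as the scale. In OE-BECs 0 were called, 1 with total counts and 5 with more than 2-fold. In OE-LECs 2 were called, and 1 with a minimum of 20 normalized counts. The 10 calls on the pathway lists over the 3 comparisons became 5 when genes had to average at least 20 normalized counts. Each list held from 4 to 16 genes with at least 10 reads in a comparison. Whether the lists held more calls than other genes was not tested. Among all genes that reached the minimum, the share called ran from 2.77% up with 2.09% down (OE-LECs) to 8.02% up with 5.27% down (OE-BECs). Scalings by all 6 libraries, TMM and total counts moved the log2 ratios of changed over control by 0.06 at most and turned none whose interval excluded 0. Levels between libraries depended more on the scale. Of 84 rescaled member levels, 23 left the Poisson interval of their CPM, 17 with TMM sizes and 6 without Rn45s. With TMM sizes the log2 ratio of cultured Cont BECs over skin Cont went from -2.01 to -1.74 for Tek. For Tie1 it went from 1.08 to 1.35. On the scale of the endothelial markers, chosen after seeing the data, the log2 ratios of Tie1 (0.16), Ptprb (0.15) and Angpt1 (0.15) in cKO BECs turned positive, and the cause was not tested. No paired analysis was possible because each condition had 1 library, and no replicate could be left out. Depth limits Angpt1 and Angptl2 in culture, where 0 to 9 reads were counted.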

Other observations

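Other relatives of the angiopoietins were low. Angptl1 had 103 reads in Cont and 136 in cKO skin BECs and 8 or fewer in each cultured library. Angptl7 had 6 reads in Cont and 19 in OE cultured BECs (log2 ratio 2.05, interval 0.66 to 3.66), which the rule for OE samples called up. Angptl6 was highest in LECs, with 53 reads in Cont and 38 in OE (-0.71, interval -1.35 to -0.08). Angpt4 had 15 reads or fewer in every library. Lipg, the endothelial lipase, had 13 reads in Cont and 3 in cKO skin BECs (ratio of Cont to cKO 5.63, interval of the log2 ratio of cKO to Cont -4.95 to -0.63), which the rule called down.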
